A study of Mus musculus with 4 samples.

Results

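The microRNAs miR-23a, miR-23b, miR-24, miR-27a and miR-27b were examined in mouse activated T cells transduced with Foxp3, with control vector-transduced activated T cells as the other RNA. The probes were chosen by name, as those whose ID read 23a, 23b, 24, 27a or 27b after the prefix 1org- or 2org-, a rule that uses no measured value. This gave 5 probes of the 171 miRNA probes (178 with control RNAs), all with the prefix 1org-. Foxp3 is the master transcription factor of regulatory T cells, so the comparison asked which miRNAs differ when activated T cells carry it.

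RNA of Foxp3-transduced and control vector-transduced cells shared each array, 1 in the dye Cy5 and the other in Cy3. There were 2 arrays at 96 h and 2 at 72 h, and at each time the Foxp3 RNA was in Cy5 on replicate 1 and in Cy3 on replicate 2. The labels give no strain, vector, stimulus, sorting step or number of animals, and do not say whether 96 h and 72 h are separate cultures. The 2 arrays of a time point were taken throughout as dye swaps of the same RNAs, an assumption from the labelled times and dyes. The arrays give 1 ratio per probe and no level, so neither the identity of the cells nor the success of the transduction could be checked against markers. In bulk RNA such as this, fewer cells of a type and less RNA per cell cannot be told apart.

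A miRNA guides the Argonaute protein to messenger RNAs that pair with its seed, bases 2 to 8 from its 5′ end, and lowers their output. The miR-23, miR-27 and miR-24 genes lie side by side, are transcribed as a common precursor, and exist in the mouse as duplicated clusters. In T cells these clusters, taken as a whole, are known to restrain effector differentiation and cytokine production. Excess miR-27 is known to impair regulatory T cells. Each of the 3 miRNAs also occurs widely outside the immune system.

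The sequences below show how alike the miRNAs named by the 5 probes are. Whether the probes tell the a and b copies apart was not tested. They are from RefSeq (build GRCm38.p6), since probe sequences were not used here, and the seed is in capitals. The IDs carry names without an arm, and those older names stand for the 3p arms. Mature 3p arms were found in the table for 4 of the 5, while that of miR-23b is represented by its hairpin, with the longest run shared with miR-23a-3p in capitals.
miR-23a-3p: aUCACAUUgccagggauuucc
Mir23b hairpin: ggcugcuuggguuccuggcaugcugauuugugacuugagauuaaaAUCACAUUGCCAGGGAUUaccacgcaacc
miR-27a-3p: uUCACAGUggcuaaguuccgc
miR-27b-3p: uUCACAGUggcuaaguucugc
miR-24-3p: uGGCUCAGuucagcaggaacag

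The a and b copies are nearly the same molecule. miR-27a-3p and miR-27b-3p share the seed and 20 of 21 bases, and differ by C19U, counted from the 5′ end with the base of miR-27a-3p first. The hairpin of Mir23b holds 20 of the 21 bases of miR-23a-3p, its seed included, and differs by U19A. The table gave 2 genes for miR-24-3p with 1 sequence between them, so 1 probe stands for the output of both clusters. Mir23a, Mir27a and Mir24-2 lie within 404 bases on chr8:84208518-84208921, plus strand. Mir23b, Mir27b and Mir24-1 lie within 792 bases on chr13:63300484-63301275, plus strand, inside the limits of Aopep, a protein-coding gene. The platform annotation listed 3 of the 5 probes, 1org-23a and 1org-27a under the mouse genes Mir23a and Mir27a and 1org-23b under a gene ID that is no mouse gene of the RefSeq table. It did not list 1org-24 and 1org-27b.

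The direction of the deposited ratios is not known from the labels, and the arrays did not settle it. Of the 4 arrays, 3 resembled each other whatever the dye of the Foxp3 RNA. Over the 171 miRNA probes, which share an array and are no independent replicates, the 96 h array with Foxp3 in Cy3 correlated with the 72 h arrays at r = 0.66 (Foxp3 in Cy5) and r = 0.80 (Foxp3 in Cy3), and those 72 h arrays correlated with each other at r = 0.66. The array of 96 h and Foxp3 in Cy5 stood apart, at r = -0.12 with its dye swap and 0.07 and -0.20 with the 72 h arrays. Its median over miRNA probes was 1.27, against 0.02 on the other 96 h array and -0.59 and -0.83 on the 72 h arrays. Each result is therefore given in 2 readings. In the turned reading the values are Cy5 over Cy3, and values from arrays whose Foxp3 RNA was in Cy3 change sign. In the unturned reading the values already are Foxp3 over control. The log base is also not stated, and every fold rests on base 2.

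As deposited, with no sign turned, 5 of 5 probes were above the array's median on each of the 3 arrays that resembled each other. Several of them stood nearer the middle than the top. Ranked from the highest miRNA probe, they ran from 28 to 76 on the 96 h array with Foxp3 in Cy3. At 72 h they ran from 10 to 41 with Foxp3 in Cy5 and from 22 to 66 with Foxp3 in Cy3. On the 96 h array whose Foxp3 RNA was in Cy5, 1 of 5 was above the array's median, which was 1org-27b. The median of the 5 was 0.89 there and 0.95 on the other 96 h array, against 0.33 and -0.37 on the 72 h arrays with Foxp3 in Cy5 and in Cy3.

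**Figure D1:**
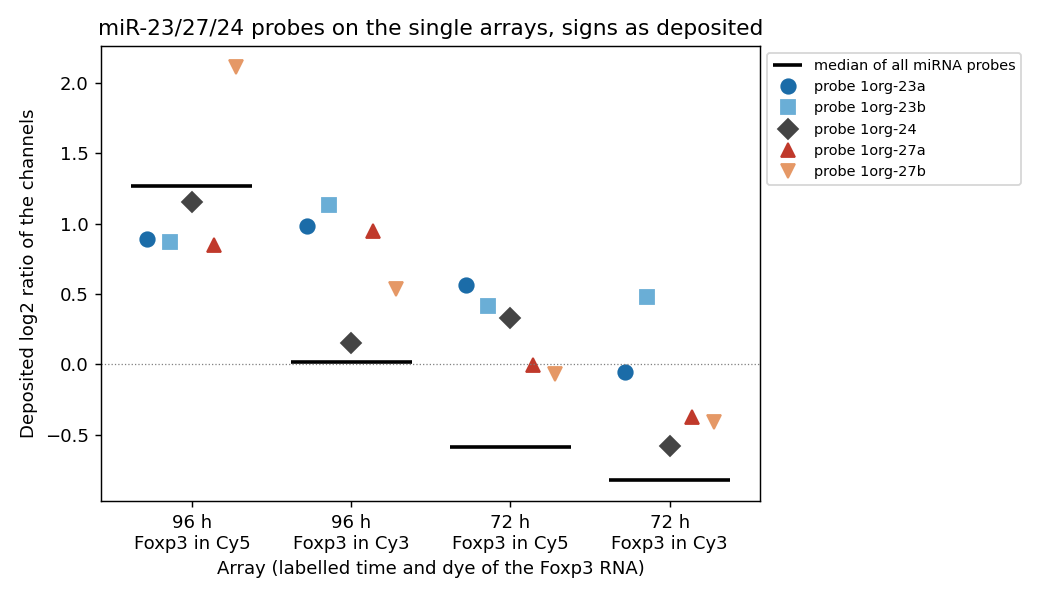
Deposited log2 ratio (vertical axis) of the 5 cluster probes on each of the 4 arrays (horizontal axis), with symbols for the probes and a black bar for the median of all 171 miRNA probes. On the 96 h array whose Foxp3 RNA was in Cy5, 1org-27b stands at 2.12 and the other 4 probes lie under the median of 1.27, while all 5 lie above the bar on the other 3 arrays.

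Probe 1org-23a, for miR-23a of the cluster on chromosome 8, had deposited values of 0.894 and 0.986 at 96 h (Foxp3 in Cy5, then in Cy3), against 0.567 and -0.056 at 72 h. The 96 h values were nearly equal in both dye orientations, and both lay above the 72 h values. Ranked from the highest of 171, it stood at 114 and 32 at 96 h and at 10 and 46 at 72 h. Probe 1org-23b, for the copy on chromosome 13, had 0.873 and 1.135 at 96 h, against 0.412 and 0.479 at 72 h. It was the 1 probe of the 5 above 0 on all 4 arrays.

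Probe 1org-27a, for miR-27a, had 0.851 and 0.945 at 96 h, against -0.005 and -0.371 at 72 h. Its 96 h values lay within 0.19 of those of both miR-23 probes. Probe 1org-27b had 2.117 and 0.535 at 96 h, against -0.066 and -0.409 at 72 h. At 96 h it was 1.266 above 1org-27a with Foxp3 in Cy5 and 0.41 below it with Foxp3 in Cy3, whereas at 72 h it was within 0.061 of 1org-27a on the first array and 0.038 on the second. Probe 1org-24, for the miR-24 of both clusters, had 1.151 and 0.15 at 96 h, against 0.329 and -0.58 at 72 h.

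In the turned reading without centring, miR-24 and miR-27b had mean ratios above 0 with Foxp3, and miR-23a, miR-23b and miR-27a were near 0. None of the 5 passed the test. Over both time points 1org-27b averaged 0.48 ± 0.44 and 1org-24 averaged 0.48 ± 0.03 (SD, n = 2), a 1.40-fold and a 1.39-fold ratio. Probe 1org-23a averaged 0.13 ± 0.25, 1org-27a 0.07 ± 0.16 and 1org-23b -0.08 ± 0.07 (SD, n = 2). These SDs are between the time points and leave out the difference between the dye orientations. The order of the means was 1org-27b, 1org-24, 1org-23a, 1org-27a and 1org-23b, and the 95% limma intervals of all 5 overlapped.

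The test was an intercept-only limma fit on the 2 time point averages of all 171 miRNA probes, and a call was an adjusted p (Benjamini-Hochberg) under 0.05. It called 0 of the 5 probes and 0% of all probes. The lowest adjusted limma p among the 5 was 0.589, shared by 1org-24 and 1org-27b, and the lowest over all probes was 0.307. At an unadjusted limma p under 0.05 there were 16 probes, none of the 5 among them. The limma interval for 1org-24 ran from -0.47 to 1.42 and that for 1org-23b from -1.03 to 0.86, so a 2-fold higher ratio for 1org-24 and a 2-fold lower one for 1org-23b lay within them. P-values set each mean against the spread between the time points pooled over all probes, with a standard error of 0.48 for each probe. A probe's own spread played no part, and the pooled spread may be technical.

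At 96 h in the turned reading, the mean ratio was 0.79 for 1org-27b and 0.50 for 1org-24, and -0.05, -0.05 and -0.13 for 1org-23a, 1org-27a and 1org-23b. None of these means came from arrays that shared a sign. For each of the 5 probes, the array with Foxp3 in Cy5 gave a ratio above 0 and its dye swap a ratio below 0. Thus 0 of 5 had 1 sign on both arrays, where 56.1% of all miRNA probes did. With a mean past 1.5-fold and 1 sign on both arrays, which is how past 1.5-fold is counted throughout, 0 of 5 were higher and 0 lower, where 46.2% of all probes were higher and 5.26% lower. The median of the 5 was -0.05, against 0.81 for all 171 miRNA probes. With 1 replicate per time point these values have no test.

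Centring each array on its miRNA median changed this picture. At 96 h 1org-23a, 1org-23b and 1org-27a then had 1 sign on both arrays, at -0.67, -0.75 and -0.67, and 1org-24 did at -0.12. These 3 passed 1.5-fold on the lower side, where 25.1% of all probes passed. Probe 1org-27b had 0.17, from arrays of opposite sign. A ratio below 0 there means a lower ratio than that of the median miRNA probe.

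At 72 h in the turned reading, 1org-24 had 0.329 and 0.58 (Foxp3 in Cy5, then in Cy3), a mean of 0.45 or 1.37-fold, and 1org-23a had 0.567 and 0.056, a mean of 0.31 or 1.24-fold. These 2 of the 5 probes had 1 sign on both arrays, where 28.1% of all probes did. The means of 1org-27a, 1org-27b and 1org-23b were 0.18, 0.17 and -0.03, each from arrays of opposite sign. None of the 5 passed 1.5-fold on the higher side, where 2.34% of all probes passed, or on the lower side, where 5.26% passed. The median of the 5 was 0.18, against 0.07 for all miRNA probes.

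With the values read as unturned, all 5 probes were above 0 at 96 h on both arrays. Probe 1org-27b averaged 1.33 (2.51-fold), 1org-23b 1.00 (2.01-fold), 1org-23a 0.94 (1.92-fold), 1org-27a 0.90 (1.86-fold) and 1org-24 0.65 (1.57-fold). The count with 1 sign was 5 of 5, where 43.9% of all probes had 1 sign, and 5 of 5 passed 1.5-fold on the higher side, where 33.9% passed. The median of the 5 was 0.94, against 0.65 for all miRNA probes, of which 161 of 171 were above 0. After centring on the miRNA medians, 1 of the 5 had 1 sign on both 96 h arrays, where 31% of all probes did, and 1 of the 5 passed on the higher side, where 10.5% passed. This was 1org-27b at 0.68. The means of 1org-23b, 1org-23a, 1org-27a and 1org-24 were then 0.36, 0.30, 0.26 and 0.01, each from arrays of opposite sign.

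At 72 h the unturned reading gave 0.45 for 1org-23b and 0.26 for 1org-23a, with -0.13, -0.19 and -0.24 for 1org-24, 1org-27a and 1org-27b. In this reading 3 of 5 had 1 sign on both arrays, 1org-23b above 0 and the miR-27 probes below 0, where 71.3% of all probes had 1 sign. None of the 5 passed 1.5-fold higher, where 2.92% passed, or lower, where 53.2% passed. The median of the 5 was -0.13, against -0.67 for all miRNA probes. Over both time points limma called 0 of the 5 in this reading (adjusted p = 0.998 for each) and 1.75% of all probes. The highest mean was that of 1org-23b, at 0.72 ± 0.39 (SD, n = 2).

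**Figure D2:**
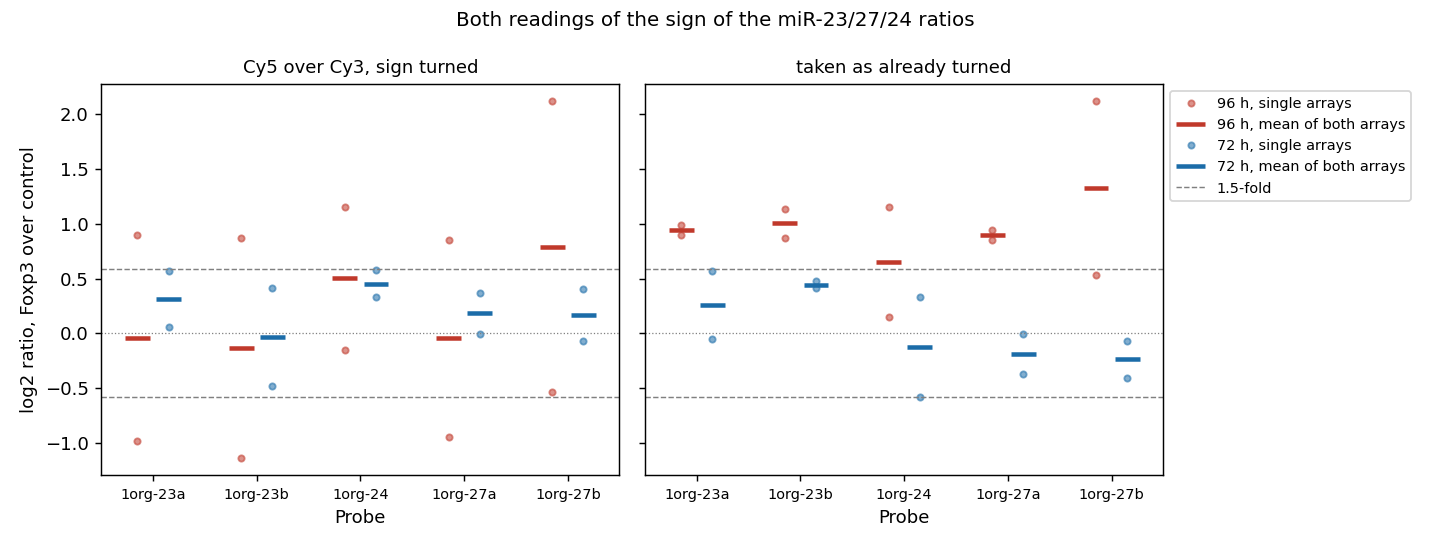
Log2 ratio of Foxp3 over control (vertical axis) for each of the 5 probes (horizontal axis) in the turned reading (left) and the unturned reading (right), with dots for single arrays, bars for the mean of the 2 arrays of 96 h (red) and 72 h (blue), and dashed lines at 1.5-fold. In the left panel the 96 h dots of every probe lie on both sides of 0, and in the right panel they all lie above 0.

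The time points were then compared. In the turned reading the difference of 96 h minus 72 h was 0.62 for 1org-27b, 0.05 for 1org-24, -0.10 for 1org-23b, -0.23 for 1org-27a and -0.36 for 1org-23a. A limma fit of all 4 arrays with a term for the time point, a dye term and 1 residual degree of freedom, called 0 of the 5 and 0% of all probes (adjusted p = 0.991 for each of the 5), and 0 probes had an unadjusted p under 0.05. The 95% interval for 1org-27b ran from -2.47 to 3.71, so the term could not have shown a difference of the size measured. If the 2 arrays of a time point hold 1 pair of RNAs, as assumed, this fit counts dye swaps as separate arrays. Its p-values and intervals then set the difference against technical spread only, with 1 sample per time point. With 1.5-fold between the means and no array of 96 h inside the range of 72 h or the reverse, 0 of the 5 were higher and 0 lower at 96 h, where 4.68% of all probes were higher and 2.34% lower.

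In the unturned reading all 5 were higher at 96 h, by 1.56 for 1org-27b, 1.09 for 1org-27a, 0.78 for 1org-24, 0.68 for 1org-23a and 0.56 for 1org-23b. Of these, 3 of 5 did so by 1.5-fold with no overlap, where 67.8% of all probes did. The share of the 5 was thus near that of all probes, and 1org-24 and 1org-23b were those that did not qualify. None of the 5 passed the same 4-array limma fit in this reading, which called 2 of all 171 miRNA probes. The lowest adjusted limma p among the 5 was 0.251, for 1org-27b.

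**Figure D3:**
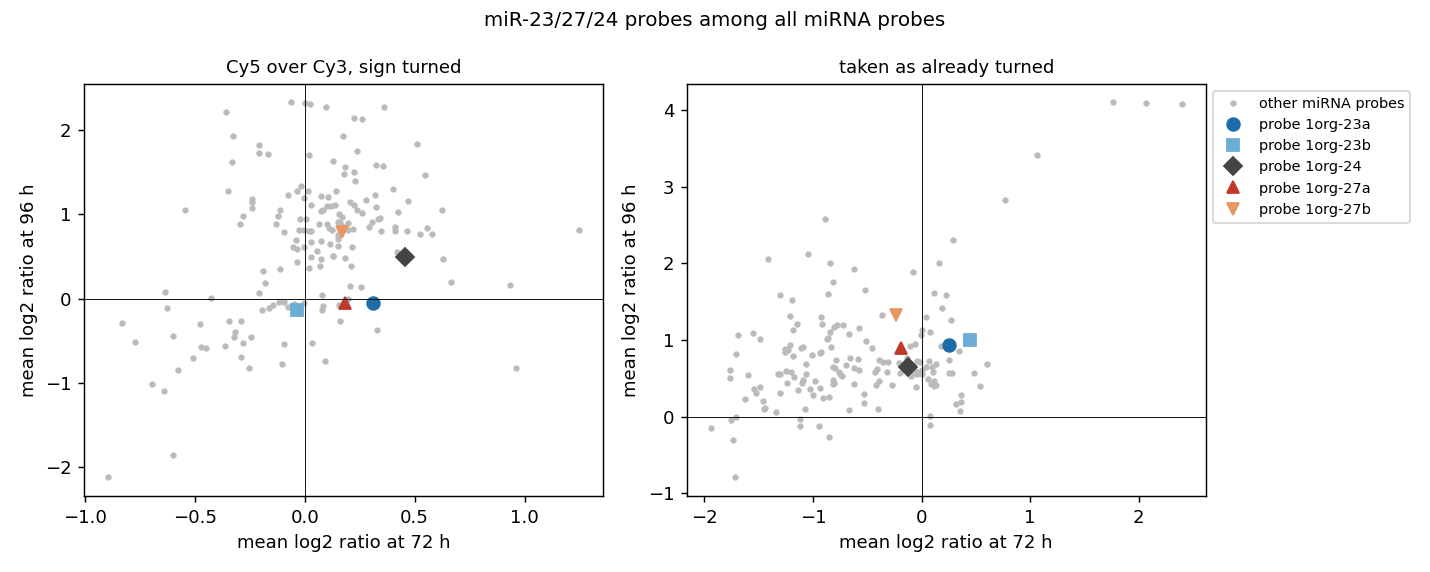
Mean log2 ratio at 96 h (vertical axis) against that at 72 h (horizontal axis) for the 5 probes (coloured symbols) and the other 166 miRNA probes (grey dots), in the turned reading (left) and the unturned reading (right). In the left panel 3 of the 5 lie just under 0 at 96 h, where the median of the other probes is 0.81, and in the right panel all 5 lie above 0 at 96 h, as do 156 of the other 166.

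Likeness between probes was measured as the Euclidean distance over the 4 log2 ratios, which is the same in both readings and under any centring of the arrays. Among the 5, the closest were 1org-23a and 1org-23b, at 0.58, and 1org-23a and 1org-27a, at 0.66. Of all 14535 pairs of miRNA probes, 2.22% and 3.38% were closer, and the median distance was 2.14. Probe 1org-23a was the nearest of all probes to 1org-23b. On the single arrays these miR-23 probes differed by at most 0.54, on the 72 h array with Foxp3 in Cy3. Probes are assigned to a copy by name only, and whether a probe also binds the other copy was not tested.

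The miR-27 probes were less alike, at a distance of 1.33, with 23.5% of all pairs closer, although their RefSeq sequences differ by 1 base. Among the 15 pairs of probes whose IDs differ only in a final a against b, 1org-23a and 1org-23b were the 4th closest and 1org-27a and 1org-27b the 9th, and the median was 1.20. Neighbours within a cluster were not uniformly closer than others. On chromosome 8, 1org-23a and 1org-27a were 0.66 apart, and on chromosome 13, 1org-23b and 1org-27b were 1.71 apart.

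The probe most like 1org-27b was not a member but 1org-128, at 0.43, and each was the nearest of all probes to the other (0.777% of all pairs were closer). Probe 1org-128 had deposited values of 2.383 and 0.269 at 96 h, against -0.128 and -0.606 at 72 h, so it was high on the same array as 1org-27b. miR-128, a miRNA typical of neurons, is shown with miR-27b because they share a run of 8 bases (in capitals), bases 2 to 9 of miR-27b-3p and 1 to 8 of miR-128-3p, so that their seeds are the same motif moved by 1 base.
miR-27b-3p: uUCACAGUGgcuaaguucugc
miR-128-3p: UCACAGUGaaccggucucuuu

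A run of that length was found for 2 of the 103 other probes matched to a RefSeq mature sequence by ID (1.94%). The other was 1org-27a, which lay at 1.70 from 1org-128, with 35.8% of all pairs closer. The same search over the other 7 matched pairs of a cluster probe and 1 of its 3 nearest probes found longest runs of 4 to 6 bases, lengths reached by 15.5% to 94.2% of the matched probes. A shared run is a description of the mature miRNAs and not of the probes.

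**Figure D4:**
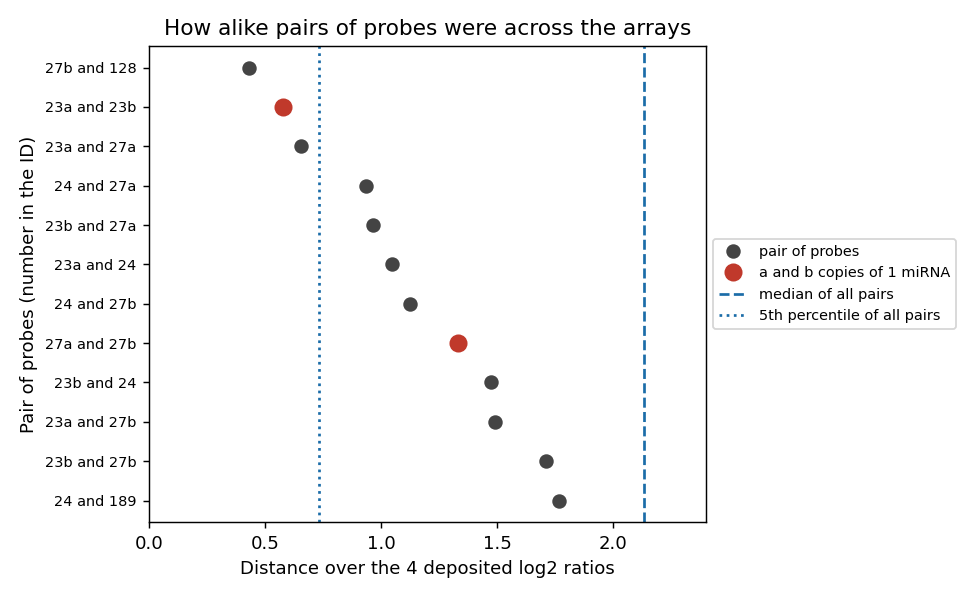
Distance over the 4 deposited log2 ratios (horizontal axis) for the pairs among the 5 probes, for 1org-27b with 1org-128 and for 1org-24 with 1org-189 (rows), with the a and b copies of a miRNA in red and dashed and dotted lines at the median (2.14) and the 5th percentile (0.73) of all pairs. The pairs 1org-27b with 1org-128, 1org-23a with 1org-23b, and 1org-23a with 1org-27a lie left of the 5th percentile.

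The other nearest probes were unrelated by name. Probe 1org-23a was closest to 1org-149 (0.56), 1org-27a to 1org-30d (0.39) and 1org-106a (0.42), and 1org-24 to 1org-201 (0.35), 1org-183 (0.45) and 1org-297 (0.51). Probe 1org-149 was among the 3 nearest of both miR-23 probes and of 1org-27a. The second nearest to 1org-27b was 1org-207 (0.73) and the third nearest to 1org-23b was 1org-92 (0.68).

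The other arm of a miR-24 precursor could be followed through 1org-189, since miR-189 is an old name that RefSeq lists for Mir24-1 and that stood for its 5p arm, shown here beside that of Mir24-2 with the seed in capitals.
miR-24-1-5p: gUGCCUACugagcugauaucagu
miR-24-2-5p: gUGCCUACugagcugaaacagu
Probe 1org-189 had deposited values of 2.152 and -0.993 at 96 h, against -0.402 and -1.115 at 72 h. It was far from 1org-24, at a distance of 1.77, with 38.2% of all pairs closer. In the turned reading 1org-24 had 0.50 at 96 h from arrays of opposite sign, whereas 1org-189 had 1 sign on both 96 h arrays, with a mean of 1.57 (2.97-fold). In that reading 56.1% of all miRNA probes had 1 sign on both 96 h arrays, and 46.2% were higher past 1.5-fold. The median of all miRNA probes was 0.81 there, and 1org-189 was added after its values were seen. At 72 h 1org-189 had 0.36 in that reading. Its mean of 0.96 ± 0.86 (SD, n = 2) did not pass limma (adjusted p = 0.517). Unturned, its mean at 96 h was 0.58 from arrays of opposite sign and that at 72 h was -0.76. The 5p arms share their first 16 bases, and whether the probe tells them apart was not tested.

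The cluster probes were set beside 7 other miRNAs reported as higher in regulatory T cells, matched by ID. In the turned reading 2 of the 5 cluster probes were above 0 at 96 h and 4 of 5 at 72 h, where 74.3% and 59.6% of all miRNA probes were. Of the other 7, 4 were above 0 at 96 h, with a median of 0.16, and 5 at 72 h, with a median of 0.33. At 96 h the 7 ran from -0.82 for 1org-155, a miRNA induced by T cell activation, to 1.83 for 2org-223, a myeloid miRNA, and at 72 h from -0.21 for 2org-223 to 0.96 for 1org-155. Unturned, 6 of 7 were above 0 at 96 h, with a median of 0.47, and 3 of 7 at 72 h, with a median of -0.40, where 94.2% and 24.6% of all miRNA probes were above 0. None of the 7 passed limma in the turned reading.

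Markers of other cell types are given beside the cluster probes. In the turned reading, where the median of all miRNA probes was 0.81 at 96 h and 74.3% were above 0, 1org-23a, 1org-23b and 1org-27a lay below every stromal, epithelial, myeloid and erythroid marker. Probe 1org-27b at 0.79 lay among them, above 1org-200a at 0.59 and 1org-200b at 0.56, and 1org-24 was at 0.50. Each of these means came from arrays of opposite sign. All 8 stromal or endothelial probes were above 0 at 96 h in that reading, from 0.83 to 2.33 with a median of 1.16, and at 72 h their median was 0.11. All 5 epithelial probes had means above 0 at 96 h, with a median of 1.00, and at 72 h their median was 0.06. Of these, only 1org-141 had 1 sign on both 96 h arrays in that reading. The myeloid probe 2org-223 stood at 1.83 and the erythroid probe 1org-144 at 1.93 at 96 h, against -0.21 and 0.17 at 72 h. The 6 T cell probes had medians of 0.09 at 96 h and 0.11 at 72 h, but went both ways. They ran from -0.82 to 0.62 at 96 h, with 3 below 0, and from -0.83 to 0.96 at 72 h, with 2 below 0. Unturned, the median of the 5 cluster probes was 0.94 at 96 h and -0.13 at 72 h. The medians were 0.75 and -1.40 for the stromal or endothelial probes. For the T cell probes they were 0.58 and 0.03, with 3 of the 6 below 0 at 72 h. The medians of the epithelial probes were 4.08 and 1.76, but that list was split. Probes 1org-200a, 1org-200b and 2org-200c had 4.08 or more at 96 h and 1.76 or more at 72 h. The other epithelial probes, 1org-141 and 1org-205, had 1.129 and 1.3155 at 96 h, against -1.185 and -1.214 at 72 h. The probes 1org-155, 2org-214 and 2org-223 stand both among the 7 and among these markers. The part of other cell types in these ratios was not tested.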

How the data were processed

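The deposited value table was used as the authors gave it. Its deposited values were read as log2 ratios between the channels, an assumption from the values, because the authors' scanner, background correction, normalization, log base and sign are not given in the sources used here. Without scanner intensities, signal over background is unknown. The members and lists were chosen with earlier results of these data known. The 7 control RNAs were left out of tests. The turned reading was the main one. The 2 arrays of a time point were assumed to hold the same RNAs and were averaged, so n was 2. Tests used limma 3.58.1 in R 4.3.3 over 171 probes with Benjamini-Hochberg adjustment, tested on simulated data, where the empirical Bayes step pooled the variance over probes. Distances were computed with scipy 1.17.1. Named probes were the 5 members, the 3 nearest probes of each, the probes of the lists, and 1org-189, which was added after its values were seen. Alternatives were centring on miRNA medians or on U6 and tRNA probes, the unturned reading, a dye term, a 2-fold threshold and leaving out each array.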

Additional observations from a re-analysis of the deposited data

Results flagged for a closer look

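In the unturned reading, 1org-27a and 1org-27b had opposite signs at the time points, with both 96 h arrays above 0 and both 72 h arrays below 0. The difference of 96 h minus 72 h was 1.56 for 1org-27b and 1.09 for 1org-27a. Limma's term for the difference did not pass in this reading (adjusted p = 0.251 for 1org-27b and 0.413 for 1org-27a), in a fit of all 4 arrays that holds 1 pair of RNAs per time point and so tests technical spread only. That fit called 2 of the 171 miRNA probes. Of all miRNA probes, 30 of 171 (17.5%) had such opposite signs in this reading, and 2 of 171 (1.17%) in the turned reading, none of them among the 5 cluster probes.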

How the results depend on the processing

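Of 45 mean ratios of the 5 probes under alternatives, 34 kept their sign, 11 turned it and 0 passed limma. The fit with a dye term cannot change a mean, because the dye orientations are balanced. Its signs were therefore kept by design and say nothing about stability. The mean of 1org-24 stayed above 0 under all 9 alternatives, from 0.11 to 0.80. Centred on the miRNA medians, 1org-23a had -0.24 and 1org-27a -0.30. For 1org-23b the mean was 0.063 centred on U6 and tRNA, 0.72 in the unturned reading and 0.76 in that reading centred on the miRNA medians. With each array left out in turn, the means ran from -0.34 to 0.60 for 1org-23a, -0.58 to 0.42 for 1org-23b, -0.38 to 0.52 for 1org-27a and -0.18 to 1.14 for 1org-27b. The turns of 1org-23a and 1org-27b came without 96 h replicate 1, its Foxp3 in Cy5 (-0.34 and -0.18). That of 1org-27a came without that array (-0.38) and without 72 h replicate 2 (-0.03). That of 1org-23b came without 96 h replicate 2 (0.42) and without 72 h replicate 2 (0.14), both with Foxp3 in Cy3. The count of probes called by limma over both time points was 0 as reported, 2 centred on the miRNA medians, 3 in the unturned reading, 7 in that reading centred, and from 0 to 94 with an array left out (94 without 72 h replicate 1 and 3 without 96 h replicate 1, both with Foxp3 in Cy5). The difference between time points gave 0 calls as reported and 2 in the unturned reading, and could not be tested with an array left out. The count of the 5 past 1.5-fold at 96 h was 0 as reported (51.5% of all miRNA probes, in either direction), 3 centred on the miRNA medians (42.7%), 2 centred on U6 and tRNA (65.5%), 5 in the unturned reading (33.9%), 1 in that reading centred (17.0%), and 3 to 5 from a single array (56.7% and 77.8%). At 72 h it was 0 as reported (7.60%) and 2 in the unturned reading centred on the miRNA medians (44.4%). The causes were not tested. No paired analysis was possible because the replicate number only names the dye orientation of arrays assumed to hold 1 pair of RNAs.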
